A study of Mus musculus with 16 samples.

Results

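The genes described here were 280 protein-coding genes of distal mouse chromosome 1 that were, as a set, higher in B16F10 tumours deficient in Pros1 (BdP) than in wild-type (WT) tumours. A member lay between positions 127868773 and 191318194 of chromosome 1 (build GRCm38, 63.4 Mb). It also reached 1 FPKM in at least 4 of 16 libraries. FPKM is a count of fragments divided by gene length and by a size set for each library. The deposited table held 54532 genes, of which 12319 passed the same filter, and 529 protein-coding genes in the segment, of which 249 did not pass and 63 were at 0 in every library. The segment was chosen by the BdP minus WT differences of its genes under PBS and under cisplatin, so every BdP minus WT value below describes the choice and is given with no test. B16F10 is a melanoma line of C57BL/6J mice. WT or BdP cells were grown under the skin of C57BL/6J hosts 8 weeks old and of both sexes, with their own immune system, and whole end-stage tumours were sequenced. Hosts were given PBS, or cisplatin at 5 mg/kg, a platinum drug that crosslinks DNA, in 2 rounds of 3 daily injections from day 8 after implantation. Each of the 4 groups (WT PBS, WT cisplatin, BdP PBS, BdP cisplatin) held 4 libraries. The titles call BdP deficient in Pros1 and another label calls it a knockdown. How BdP was made, and whether it is 1 clone, is not given in the sources used here, so the loss of Pros1 and any other difference between the cell populations cannot be told apart.

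The distal arm of mouse chromosome 1 is known for several families of immune genes that lie side by side. They include Fc receptors, which bind antibodies, the SLAM receptors of lymphocytes, and the interferon-inducible HIN-200 proteins, which bind DNA. Between them lie genes that all cells use, such as Parp1 of DNA repair, the citric acid cycle genes Sdhc and Fh1, and the γ-secretase genes Psen2 and Ncstn. In RNA from a whole tumour, fewer cells of a type and less RNA per cell cannot be told apart.

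Pros1, the gene of protein S, checks the labels. Its FPKM was 9.77, 4.79, 5.89 and 5.42 in the WT libraries under PBS and 1.61, 1.59, 1.58 and 1.24 in BdP. Under cisplatin it was 10.4, 11.5, 7.78 and 11.4 in WT and 2.39, 2.21, 2.52 and 1.73 in BdP, so the genotypes did not overlap. Libraries held 10051843 to 27055771 reads in genes and 33332 to 624761 reads in members, the lowest of both in WT PBS 1, where mitochondrial transcripts took 76.9% of reads. WT cisplatin 4 had 21.7% and WT cisplatin 3 had 12.2% of such reads, and the rest 2.03% to 5.06%.

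The letters of the members' promoters are given by the gene lists used below, whose genes did not all share them. Whether these letters bear on the RNA values was not tested. RefSeq (GRCm38.p6) gave the 250 bases before the start of 236 of the 280 members. The letters GGGCGG on either strand (a GC box) stood in 62.7% of the promoters of members outside the leukocyte and HIN-200 lists, in 24% of 25 leukocyte members and in 10% of 10 HIN-200 members. They stood in 60.9% of 261 chromosome 1 genes before the segment and in 33% of all 27025 promoters. The core of the interferon-stimulated response element, searched as 2 copies of GAAA with any 2 bases between them on either strand, was found in 2.49%, 12% and 70% of the same 3 groups of members and in 3.05% of all promoters. The median number of CG pairs was 16, 4 and 2 in these groups, 17 before the segment and 6 over all. In capitals, Rab3gap1 (chr1:127868523-127868772, plus strand) and Psen2 (chr1:180256301-180256550, minus strand) show GC boxes, CCGCCC where the box is on the other strand, and the HIN-200 genes Mndal (chr1:173880188-173880437), Ifi213 (chr1:173599273-173599522) and Ifi207 (chr1:173741810-173742059), all on the minus strand, show the response element core. Each is written 5′ to 3′ in the direction of its gene.
Rab3gap1: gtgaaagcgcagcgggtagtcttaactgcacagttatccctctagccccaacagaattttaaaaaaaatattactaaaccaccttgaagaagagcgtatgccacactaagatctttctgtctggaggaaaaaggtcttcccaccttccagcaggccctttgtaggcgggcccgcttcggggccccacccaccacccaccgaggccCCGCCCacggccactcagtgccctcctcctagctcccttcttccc
Psen2: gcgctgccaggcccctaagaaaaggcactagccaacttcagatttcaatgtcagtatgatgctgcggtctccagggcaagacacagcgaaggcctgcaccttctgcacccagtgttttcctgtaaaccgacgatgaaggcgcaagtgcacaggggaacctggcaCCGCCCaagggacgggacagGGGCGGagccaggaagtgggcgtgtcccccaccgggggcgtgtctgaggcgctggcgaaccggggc
Mndal: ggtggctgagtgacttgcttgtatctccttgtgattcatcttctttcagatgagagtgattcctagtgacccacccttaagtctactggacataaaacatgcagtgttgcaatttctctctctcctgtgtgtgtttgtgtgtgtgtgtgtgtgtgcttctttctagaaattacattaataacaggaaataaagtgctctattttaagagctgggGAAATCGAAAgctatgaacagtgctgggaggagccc
Ifi213: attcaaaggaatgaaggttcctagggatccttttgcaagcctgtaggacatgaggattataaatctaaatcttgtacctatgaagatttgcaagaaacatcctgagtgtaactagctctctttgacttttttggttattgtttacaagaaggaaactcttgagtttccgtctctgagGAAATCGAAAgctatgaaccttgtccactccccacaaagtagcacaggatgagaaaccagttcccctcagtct
Ifi207: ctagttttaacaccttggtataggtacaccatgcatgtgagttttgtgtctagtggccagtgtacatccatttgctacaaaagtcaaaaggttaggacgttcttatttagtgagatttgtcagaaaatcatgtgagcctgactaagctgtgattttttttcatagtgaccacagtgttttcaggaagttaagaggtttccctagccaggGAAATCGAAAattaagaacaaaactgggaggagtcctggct
In these 3 HIN-200 promoters the core had the same letters, GAAATCGAAA, starting 36 bases before the start of Mndal, 73 before Ifi213 and 41 before Ifi207. Those letters were in 5 of the 10 HIN-200 promoters and in 0.0444% of all promoters (12). A match describes the letters and is not a measured binding site, and paralogs share sequence by descent.

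BdP tumours had more RNA than WT tumours from most of the segment, by a small and similar amount in both treatments. The difference of group means on the log2(FPKM + 1) scale, which understates changes of low genes, had a median over the members of 0.22 under PBS and 0.22 under cisplatin. It was above 0 for 234 of 280 members under PBS and for 239 under cisplatin, and for 71.8% of members in both, where 33.9% of all genes tested were above 0 in both. On the 320 protein-coding genes of chromosome 1 before the segment the medians were -0.04 and -0.07, with 137 and 120 genes above 0 and 77 above 0 in both. The members' median thus lay above that of the genes before the segment by 0.25 under PBS and 0.29 under cisplatin. Over all genes tested the medians were 0.01 and 0.01. Among the 19 other chromosomes measured, medians ran from -0.14 to 0.20 under PBS and from -0.20 to 0.27 under cisplatin, the highest on chromosome 18 both times. No other chromosome had a median above the members' under PBS, and 1 did under cisplatin. That sets a segment chosen for high values against whole chromosomes, which is not a like comparison. Chromosome 1 as a whole had medians of 0.09 and 0.09, below chromosome 18 and below chromosome 8 at 0.11 and 0.12.

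**Figure D1:**
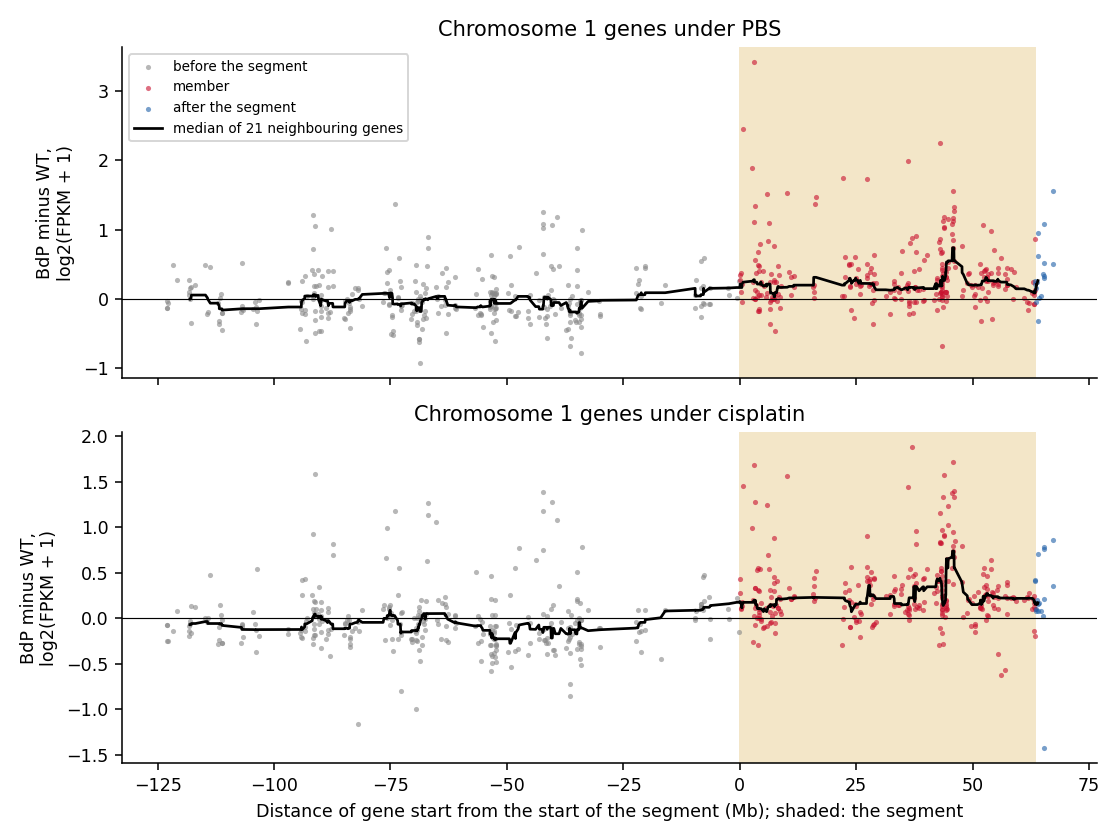
BdP minus WT difference in log2(FPKM + 1) of each chromosome 1 gene tested (points) against the distance of its start from the start of the segment in Mb, under PBS (upper panel) and cisplatin (lower panel). The black line, the median of 21 neighbouring genes, stays above 0 across the shaded segment in both panels and peaks at Ifi213 in the HIN-200 cluster (0.74 in both).

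The difference was spread along the segment. Every one of the 280 medians over 21 neighbouring genes was above 0 in both treatments, from 0.03 to 0.74 under PBS and from 0.07 to 0.74 under cisplatin, where 90 and 81 of 310 such medians before the segment were above 0. In steps of 10 Mb from the start, the medians under PBS were 0.20, 0.26, 0.22, 0.15, 0.33, 0.26 and 0.03, the last over 12 genes in a shorter step. Under cisplatin they were 0.15, 0.25, 0.17, 0.23, 0.39, 0.23 and 0.19. The fifth step holds the Fc receptor, SLAM and HIN-200 genes. Without the leukocyte and HIN-200 lists the medians of the steps under PBS were 0.10, 0.17, 0.22, 0.13, 0.19, 0.26 and 0.03. Under cisplatin they were then 0.12, 0.24, 0.19, 0.17, 0.19, 0.23 and 0.19. The fifth step was then in the range of the others, and the first was lower than with the lists, most of all under PBS.

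The bounds of the rule did not mark sharp steps in the values. Just inside the start, Rab3gap1, a regulator of Rab GTPases, was at 0.34 ± 0.10 and 0.44 ± 0.10 (difference ± SE, PBS then cisplatin), and the DNA fork remodeller Zranb3 at 0.28 ± 0.16 and 0.28 ± 0.16. The next 3, R3hdm1, Ubxn4 and the replicative helicase gene Mcm6, were between 0.10 and 0.37 in both. Just outside, Ccnt2, Mgat5, Slc35f5, Actr3 and Ddx18 ran from 0.01 to 0.26 under PBS and from -0.23 to 0.23 under cisplatin. The 20 genes before the start, spread over 17 Mb and chosen after their values were seen, had medians of 0.06 and 0.10, against -0.05 and -0.08 for the 300 genes before them. At the other end, the last 5 members were Tatdn3, the kinetochore gene Nsl1, the transcription factor genes Batf3 and Atf3, and Nenf, a secreted factor. Their medians were 0.05 and 0.11, and those of the next 5 genes beyond the bound, Tmem206, Ppp2r5a, Dtl, Ints7 and Lpgat1, were 0.21 and 0.20. All 17 genes tested beyond the segment had medians of 0.30 and 0.20, with 14 of 17 above 0 in both. Across the filter's edge, the 8 members at 1 FPKM in 4 libraries had medians of 0.32 and 0.33, and the 7 genes that reached it in 3 libraries had 0.17 and 0.23.

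The filter could favour genes that pass through BdP libraries, so members were also split by their WT level. The 249 with at least 1 FPKM in 4 or more WT libraries had medians of 0.20 and 0.21, and the 31 with fewer had 0.77 and 0.70. The 210 at 1 FPKM or more in all 16 libraries had 0.19 and 0.19. Over 3 equal parts of the members by mean FPKM the medians ran from 0.21 to 0.22 under PBS and from 0.22 to 0.24 under cisplatin, so the medians were alike across levels of expression. The 31 genes of other biotypes tested in the segment had medians of 0.36 under PBS and 0.07 under cisplatin.

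Members differed in how steady they were between tumours. For each library a score was taken, the median deviation of a set of members from the WT PBS mean less the same over the genes before the segment. Over the 238 members outside the leukocyte and HIN-200 lists it was 0.02 ± 0.05 in WT PBS, -0.04 ± 0.01 in WT cisplatin, 0.22 ± 0.02 in BdP PBS and 0.22 ± 0.04 in BdP cisplatin (mean ± SD, n = 4). The highest WT library was at 0.06 and the lowest BdP library at 0.17, so the genotypes did not overlap, as the rule would favour. Over the 42 leukocyte and HIN-200 members the scores ran from -0.83 to 1.33, -0.81 to 0.56, 0.08 to 1.73 and 0.29 to 1.49 in the same order, and the genotypes overlapped. The median SE of the difference per gene was 0.16 outside these lists and 0.62 within them, against 0.17 over all genes tested. The 42 had medians of 0.98 under PBS and 0.89 under cisplatin, and the 238 had 0.19 and 0.19, with 192 and 198 of them above 0. With a pseudocount of 0.1 the 42 were at 1.70 and 1.52. When centred on genes off chromosome 1, the 238 fell to 0.12 under PBS, with 167 above 0.

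**Figure D2:**
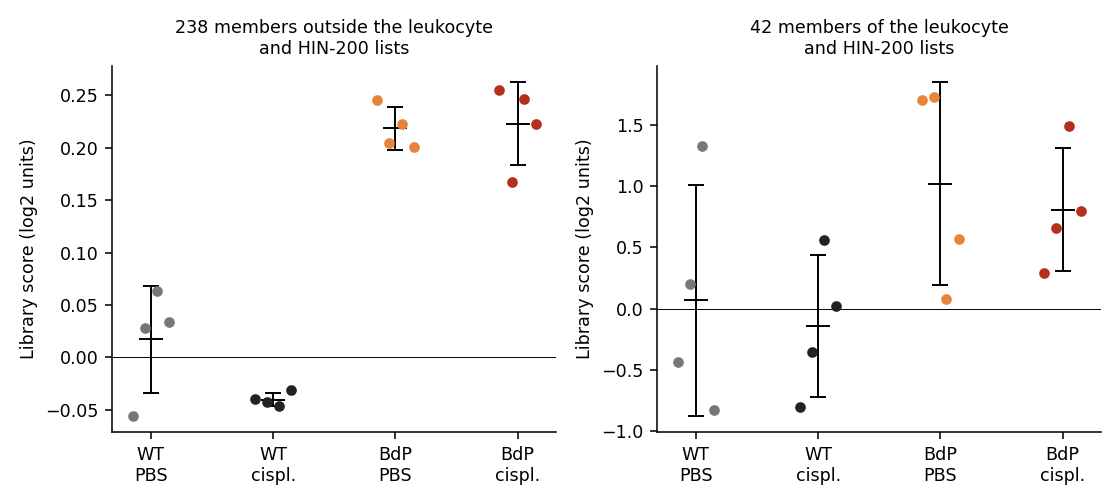
Score of each library (points; bars are the mean and SD of 4 libraries) in log2 units for 238 members outside the leukocyte and HIN-200 lists (left) and 42 members within them (right), on different vertical scales. On the left every BdP library lies at 0.17 or above and every WT library at 0.06 or below, and on the right the groups overlap.

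Members whose 4 BdP libraries all lay above the 4 WT libraries numbered 34 under PBS, where 3.36% of all genes tested did so, and 53 under cisplatin, where 6.41% did. Before the segment 8 of 320 genes did so in each treatment. Without WT PBS 3, the WT library richest in leukocyte genes, the count under PBS was 59 (8.51% of all genes), and without any other single WT PBS library it was 42 to 46 (4.64% to 5.08%). Leaving out a library can only keep or raise this count, so a rise by itself carries no reading. Of the 42 leukocyte and HIN-200 members 4 and 3 separated in the 2 treatments. In both treatments 13 members separated (0.942% of all genes did). Those reported here are Prelp, a matrix proteoglycan, the lysosomal GTPase gene Arl8a, the mitotic kinase gene Nek7, the nuclear pore basket gene Tpr, Trmt1l, the ER mannosidase gene Edem3, Stx6 of the trans-Golgi, the sulfhydryl oxidase gene Qsox1, Dcaf6, the ER stress sensor gene Atf6, Arhgap30, which encodes a GTPase-activating protein, and the Golgi gene Acbd3. Tpr lies at chr1:150392838-150449935 on the plus strand and Arhgap30 at chr1:171388954-171410298 on the plus strand.

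Tpr FPKM was 10.7, 16.3, 16.1 and 16.9 in WT and 23.8, 19.3, 23.6 and 26 in BdP under PBS. Under cisplatin it was 17.7, 18.4, 20.8 and 20.3 in WT and 25.8, 24.9, 25.2 and 25.9 in BdP. Every BdP library lay above every WT library of its treatment, with differences of 0.61 ± 0.13 and 0.38 ± 0.13. Arhgap30 was at 11.7, 13.6, 16.4 and 14 in WT and 19.3, 19.8, 17.8 and 19.5 in BdP under PBS. Its values under cisplatin were 13.4, 16, 14.5 and 13.2 in WT and 20, 21.4, 20.4 and 18.5 in BdP. Although on the leukocyte list, Arhgap30 varied less between tumours than most genes of that list. It ran from 17.8 to 19.8 FPKM in BdP PBS (SD 0.88) and more widely, from 11.7 to 16.4, in WT PBS.

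Atf6 read 9.04, 12.9, 15.9 and 12.1 in WT and 17.9, 21.2, 23.6 and 28.2 in BdP under PBS, and 11.2, 13.5, 15.3 and 15.3 in WT and 19.1, 15.6, 21.2 and 18.9 in BdP under cisplatin. The gap was wide under PBS (0.82 ± 0.17) and narrow under cisplatin (0.41 ± 0.17), where WT cisplatin 3 and BdP cisplatin 2 were close, at 15.3 and 15.6 FPKM. Coq8a, which serves coenzyme Q synthesis, had 10.3, 16.2, 9.2 and 8.64 in WT and 17.1, 28, 23.3 and 27.1 in BdP under PBS. Under cisplatin it had 16.8, 12.6, 10.3 and 11.6 in WT and 17, 21, 14.6 and 20.4 in BdP, where the genotypes overlapped. In limma's test at an adjusted p below 0.05, 5 members passed under PBS (among them Tpr, Atf6, Arhgap30 and Coq8a), all higher in BdP, where 0.990% of all genes passed in either direction and 0.414% as higher. Under cisplatin 4 passed (among them Sdhc, Arhgap30 and Psen2), all higher, where 1.07% passed in either direction and 0.349% as higher. These counts rest on the contrasts that chose the segment and are not read as support. Leaving out 1 library moved the count under PBS to 10 (without WT PBS 3), 1 (BdP PBS 3), 0 (BdP PBS 4) or 3 (WT PBS 4, WT cisplatin 1, 3 or 4, or any BdP cisplatin library). It moved the count under cisplatin to 12 (without WT PBS 1), 2 (BdP PBS 1 or 3, or BdP cisplatin 3), 1 (BdP cisplatin 2 or WT cisplatin 4) or 0 (BdP cisplatin 1 or 4, or WT cisplatin 1 or 3). Atf6, Coq8a, Ifi213, Ifi207 and those of the 13 outside the naming rule were singled out after their values were seen.

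**Figure D3:**
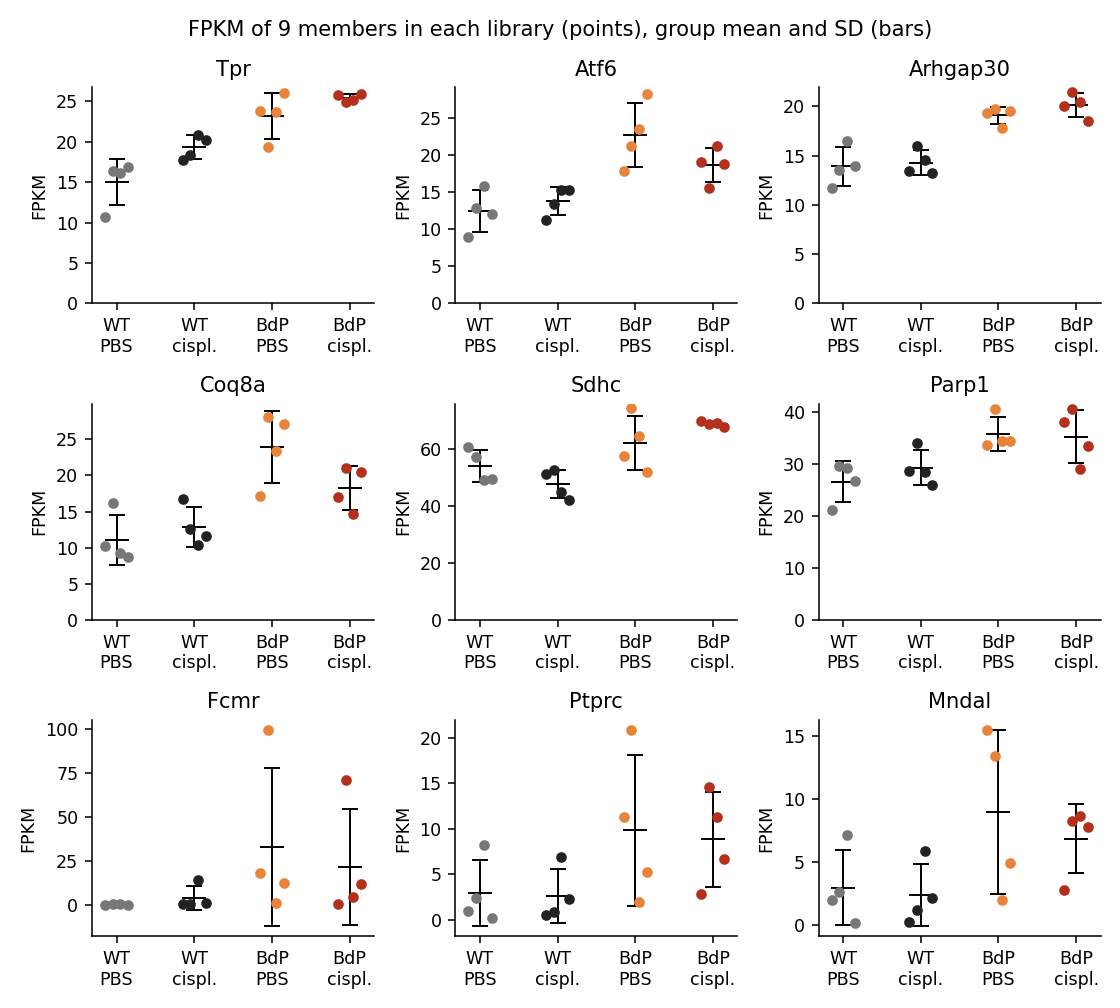
FPKM in each library (points) with the mean and SD of 4 libraries (bars) for 9 members, by genotype and treatment. Tpr, Atf6 and Arhgap30 show no overlap of BdP with WT in either treatment, Sdhc none under cisplatin, and Ptprc and Mndal overlap in both.

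Leukocyte genes included the members with the largest differences, and they varied widely between tumours. Of 50 listed genes 31 were members, with medians of 0.88 under PBS and 0.90 under cisplatin, and 31 and 30 were above 0. The filter can favour these counts, since low genes may pass it through BdP libraries, and the list was not split by WT level. Fcmr, the receptor for IgM, read 0.295, 0.527, 0.811 and 0.196 in WT and 18.4, 99.5, 1.08 and 12.6 in BdP under PBS. Under cisplatin it was 0.415, 0.423, 14.1 and 1.37 in WT and 0.505, 70.8, 4.54 and 12 in BdP. The high BdP mean under PBS rested mostly on BdP PBS 2, and under cisplatin the ranges overlapped, with WT cisplatin 3 high. Cxcr4, the receptor for the chemokine Cxcl12, was at 1.98, 9.12, 14.7 and 2.49 in WT and 42.7, 92, 11.3 and 28.2 in BdP under PBS. Its values under cisplatin were 3.25, 6.28, 61.7 and 17.6 in WT and 14, 143, 25.9 and 34 in BdP. The libraries high in Cxcr4, BdP PBS 2 and BdP cisplatin 2, were also the highest in Fcmr. Ptprc, which encodes CD45 of leukocytes, read 0.979, 2.39, 8.27 and 0.19 in WT and 11.3, 20.9, 2.03 and 5.28 in BdP under PBS. With cisplatin it read 0.512, 0.838, 6.88 and 2.32 in WT and 2.82, 14.6, 11.3 and 6.66 in BdP. Among WT libraries WT PBS 3 and WT cisplatin 3 stood high, and among BdP libraries BdP PBS 3 and BdP cisplatin 1 stood low.

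Other leukocyte members with large differences were Fcrla of B cells at 2.25 ± 0.87 and 1.15 ± 0.87, and the lymphocyte adaptor gene Lax1 at 1.51 ± 0.69 and 1.24 ± 0.69. Cd48, a SLAM family ligand, was at 1.19 ± 0.77 and 1.57 ± 0.77, and the chemokine gene Xcl1 at 0.88 ± 0.79 and 1.88 ± 0.79. In each of these 4 the standard error was between 0.69 and 0.87. A pair of genes of the receptors for IgG and IgE had differences close to their standard errors. Fcer1g, the shared signalling chain, was at 0.68 ± 0.83 and 0.97 ± 0.83, and Fcgr3 at 0.67 ± 0.81 and 0.83 ± 0.81. Rgs2, a regulator of G protein signalling, differed under PBS by 1.37 ± 0.58 and under cisplatin by 0.23 ± 0.58.

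HIN-200 genes were high in several of the same libraries. Of 17 listed genes 11 were members, all above 0 in both treatments, with medians of 1.08 and 0.85. Low genes can pass the filter through BdP libraries alone, which favours such a count. This list was not split by WT level. Mndal, whose promoter is printed above, had 1.98, 2.64, 7.14 and 0.23 FPKM in WT and 15.5, 13.4, 2.04 and 4.92 in BdP under PBS. Under cisplatin it had 0.268, 1.2, 5.91 and 2.18 in WT and 2.79, 8.28, 8.68 and 7.78 in BdP. WT PBS 3 and WT cisplatin 3 were the highest WT libraries, and the genotypes overlapped in both treatments. Ifi213 was low everywhere, at 0.15, 0.143, 0.692 and 0 in WT and 2.63, 2.03, 0.907 and 1.4 in BdP under PBS, and was the HIN-200 member that separated there. Ifi207, with the same core letters in its promoter, read 0.299, 4.8, 8.72 and 0.52 in WT and 13.5, 7.79, 3.38 and 4.12 in BdP under PBS and overlapped. Its differences were 1.17 ± 0.65 and 0.38 ± 0.65. Ifi209, with no match to the core, differed by 1.56 ± 0.71 and 1.72 ± 0.71, and Ifi211 with a match by 0.55 ± 0.80 and 0.67 ± 0.80. The HIN-200 genes are close paralogs, so how reads were shared between them is uncertain.

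Markers of immune cells that lie outside the segment are given beside these values, and 0 of them passed limma's test under either treatment. All 7 T cell markers tested were above 0 in both treatments, with medians of 1.01 and 1.5, as were all 6 of B and plasma cells (3.22 and 1.33) and all 8 of macrophages (0.58 and 0.75). The summed FPKM of the T cell markers ran from 0.987 to 63.8 in WT PBS, 2.17 to 45.9 in WT cisplatin, 9.97 to 164 in BdP PBS and 11.3 to 103 in BdP cisplatin. For B and plasma cells the ranges were 2.6 to 41.3, 8.82 to 257, 22.1 to 1369 and 9.45 to 955, and for macrophages 87 to 1291, 119 to 532, 443 to 1407 and 163 to 1084. Cd4, Trac, Cd79a, Ms4a1 and Jchain were among those at 0 in at least 1 library. Neutrophil markers went the other way, with medians of -0.13 and -0.97 and 1 and 0 of 4 above 0, as did erythroid markers at -0.51 and -1.04, with 0 and 1 of 6 above 0. The summed FPKM of the fibroblast and endothelial markers was at most 18 and 6.51. The 9 melanocyte markers had medians of -0.09 and -0.09, with sums of 5538 to 9678 FPKM over all libraries, so the labelled melanoma identity was present throughout. The part of immune cell content in the leukocyte and HIN-200 values was not tested. Outside those lists the members' medians were 0.19 in both treatments, as given above.

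Without WT PBS 3 the median of the leukocyte list under PBS was 1.32 and that of the HIN-200 list 1.45. Without WT PBS 1 they were 0.66 and 0.74, without WT PBS 4 they were 0.54 and 0.81, and without BdP PBS 2 they were 0.71 and 0.75. Under cisplatin they ran from 0.64 (without WT cisplatin 1) to 1.09 (without WT cisplatin 3) for the leukocyte list and from 0.73 to 1.19 for the HIN-200 list. The median of the 238 other members stayed between 0.17 and 0.20 in both treatments without each library in turn.

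**Figure D4:**
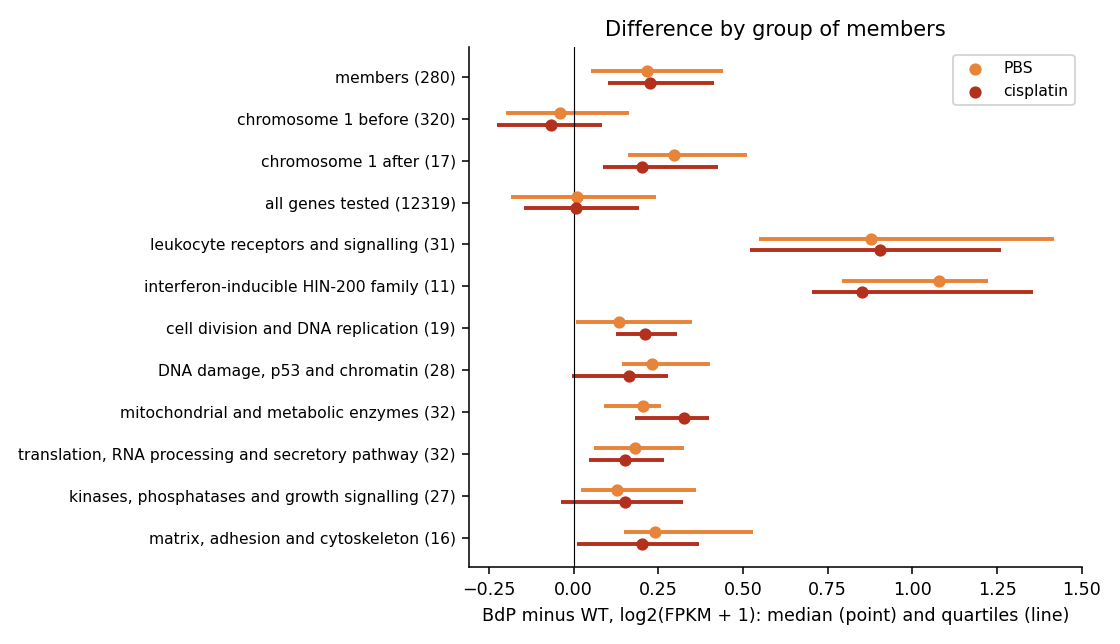
Median (points) and quartiles (lines) of the BdP minus WT difference in log2(FPKM + 1) for each list with at least 3 members, with the number of genes, beside all members, chromosome 1 genes before and after the segment, and all genes tested. The leukocyte and HIN-200 lists have medians between 0.85 and 1.08, and the other lists shown have medians between 0.13 and 0.33.

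Genes of DNA damage, p53 and chromatin held 28 members, with medians of 0.23 and 0.16 and 23 and 20 above 0. Parp1, which marks DNA breaks with ADP-ribose chains, read 21.1, 29.6, 29.2 and 26.6 in WT and 33.6, 40.6, 34.3 and 34.5 in BdP under PBS. Under cisplatin it read 28.7, 34.1, 28.5 and 25.9 in WT and 38, 40.6, 29.1 and 33.4 in BdP. The genotypes separated under PBS (0.42 ± 0.13) and overlapped under cisplatin (0.26 ± 0.13). H3f3a, for histone H3.3, was at 0.27 ± 0.18 and 0.27 ± 0.18, but has near-identical copies elsewhere, so its reads are uncertain. Hnrnpu, for a nuclear scaffold RNA-binding protein, was even at 47.7 ± 3, 51.9 ± 6.54, 50.3 ± 4.35 and 49.4 ± 2.81 FPKM (mean ± SD, n = 4) in WT PBS, WT cisplatin, BdP PBS and BdP cisplatin. The stress factor gene Atf3 was at 0.86 ± 0.44 under PBS and -0.19 ± 0.44 under cisplatin, and WT PBS 1 stood low at 17.4 FPKM. Cacybp, whose product binds ubiquitin ligase parts, was at -0.22 ± 0.19 and 0.05 ± 0.19.

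Cell division and DNA replication genes held 19 members, with medians of 0.13 and 0.21 and 15 and 18 above 0. Under PBS the median was 0.07 when centred and 0.08 without WT PBS 1. Nek7 read 9.3, 9.53, 11.1 and 7.86 in WT and 13, 13.6, 11.1 and 12.8 in BdP under PBS. Its closest libraries there, WT PBS 3 and BdP PBS 3, both read 11.1, so its separation was narrow. Lbr, for the lamin B receptor, was at 0.37 ± 0.17 and 0.54 ± 0.17, the kinesin gene Kif21b at 0.47 ± 0.14 and 0.12 ± 0.14, and Mcm6 at 0.21 ± 0.11 and 0.18 ± 0.11. Uck2, for a pyrimidine salvage kinase, was at -0.03 ± 0.17 and 0.43 ± 0.17.

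Mitochondrial and metabolic enzymes held 32 members, with medians of 0.20 under PBS and 0.33 under cisplatin, and 29 and 31 above 0. Under cisplatin 12 of the 32 (37.5%) separated, where 6.41% of all genes tested and 18.9% of the members did. Under PBS 2 (6.25%) did, where 3.36% of all genes tested and 12.1% of the members did. Sdhc, a membrane subunit of succinate dehydrogenase, read 60.5, 57.2, 49.2 and 49.5 in WT and 57.5, 74.2, 64.3 and 51.9 in BdP under PBS, where the ranges overlapped. Under cisplatin it read 51.2, 52.5, 45 and 42 in WT and 69.6, 68.6, 69.2 and 67.8 in BdP, with no overlap and little spread among the BdP libraries. Fh1, for fumarate hydratase, the next enzyme of the citric acid cycle, was at 0.04 ± 0.13 and 0.40 ± 0.13. Bpnt1, a nucleotidase gene, was at 0.21 ± 0.13 and 0.37 ± 0.13, and the ceramide synthesis gene Degs1 at 0.21 ± 0.10 and 0.15 ± 0.10. The difference between treatments, tested below as an interaction, did not pass for any of them. WT cisplatin 3 and 4, the lowest 2 for Sdhc and Fh1 under cisplatin, were also the 2 rich in mitochondrial transcripts. The part of that in these values was not tested. Without the 3 libraries richest in such reads, the medians of the list were 0.18 under PBS and 0.24 under cisplatin, with 29 above 0 in each. The 238 members outside the leukocyte and HIN-200 lists were then at 0.18 and 0.21.

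Translation, RNA processing and secretory genes held 32 members, with medians of 0.18 and 0.15 and 25 and 27 above 0. Copa, for a coat subunit of Golgi vesicles, had 33.8 ± 5.51 FPKM in WT PBS and 42.3 ± 3.98 in BdP PBS (mean ± SD, n = 4), and 36.4 ± 2.37 and 42 ± 3.71 under cisplatin. Ivns1abp was at 0.49 ± 0.16 and 0.21 ± 0.16, and Arpc5, for a subunit of the actin-nucleating Arp2/3 complex, at 0.22 ± 0.13 and -0.01 ± 0.13. Dars, for aspartyl-tRNA synthetase, and Snrpe, for a core protein of spliceosomal snRNPs, had differences between -0.05 and 0.14. Rab29, a lysosomal trafficking GTPase gene, was among the lowest members at -0.17 ± 0.30 and -0.30 ± 0.30.

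Kinase, phosphatase and growth signalling genes held 27 members, with medians of 0.13 and 0.15 and 21 and 19 above 0. Under PBS the median was 0.06 when centred and 0.21 without BdP PBS 2. Psen2, the catalytic subunit of γ-secretase, whose promoter is printed above, read 38.4, 42, 36.4 and 30.2 in WT and 39.2, 51.3, 53.2 and 52.3 in BdP under PBS. Under cisplatin it read 31.8, 36.7, 27.9 and 28.1 in WT and 49.4, 46.4, 44.8 and 43.7 in BdP. The genotypes separated under cisplatin, and under PBS BdP PBS 1 fell within the WT range. Ncstn, for another subunit of the same enzyme, was at 0.10 ± 0.10 and 0.10 ± 0.10. Mapkapk2, a kinase gene downstream of p38, was at -0.01 ± 0.18 and 0.33 ± 0.18, the adiponectin receptor gene Adipor1 at -0.15 ± 0.17 and 0.31 ± 0.17, and Uhmk1 at -0.16 ± 0.24 and 0.41 ± 0.24. Ppp1r15b, which directs a phosphatase to eIF2α, was at 0.18 ± 0.15 and -0.10 ± 0.15.

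Matrix, adhesion and cytoskeleton genes held 16 members, with medians of 0.24 and 0.20 and 14 and 12 above 0. Csrp1, a LIM-domain gene of the cytoskeleton, was the most abundant member, at 532, 356, 289 and 329 FPKM in WT and 388, 482, 488 and 387 in BdP under PBS. It overlapped between genotypes and differed by 0.24 ± 0.17 and 0.15 ± 0.17. Mpzl1, for a surface glycoprotein, was at 0.17 ± 0.17 and 0.10 ± 0.17, and Lamc1, for the laminin γ1 chain, at 0.43 ± 0.22 and 0.36 ± 0.22. Tagln2, for an actin-binding protein, was at 1.15 ± 0.79 and 1.23 ± 0.79, with a spread as wide as that of the leukocyte members. Of 14 listed genes of coagulation, complement and partners of protein S, 2 were members. Cd55, which restrains complement on cell surfaces, read 0, 0.34, 0.322 and 0.0468 in WT and 3.86, 11.3, 0.355 and 3.4 in BdP under PBS. Its differences were 1.90 under PBS and 0.995 under cisplatin. Under cisplatin BdP cisplatin 2 stood apart at 12.9 FPKM, with the other BdP libraries at 0.42 to 2.52. Apoa2, for an apolipoprotein, was at -0.68 ± 0.35 under PBS, the lowest of all members there, and 0.24 ± 0.35 under cisplatin.

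In FPKM 8 members were below 0 in both treatments, and in TPM 0 were. The 5 with the lowest mean of the 2 differences were Shisa4 (-0.46 ± 0.22 and -0.16 ± 0.22), Rab29, Apoa2, the junction gene F11r (-0.12 ± 0.20 and -0.28 ± 0.20) and Olfml2b (0.00 ± 0.20 and -0.29 ± 0.20). Across the 280 members the 2 differences had a Pearson correlation of 0.68, and of 0.36 over the 238 outside the leukocyte and HIN-200 lists. The same correlation was 0.59 over all genes tested and 0.62 over the genes before the segment, so that of the members was near the background and that of the 238 below it. The background sets keep their leukocyte genes, such as Zap70 and Ctla4, so they are not like the 238. No library enters both differences, and genes are not independent replicates.

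**Figure D5:**
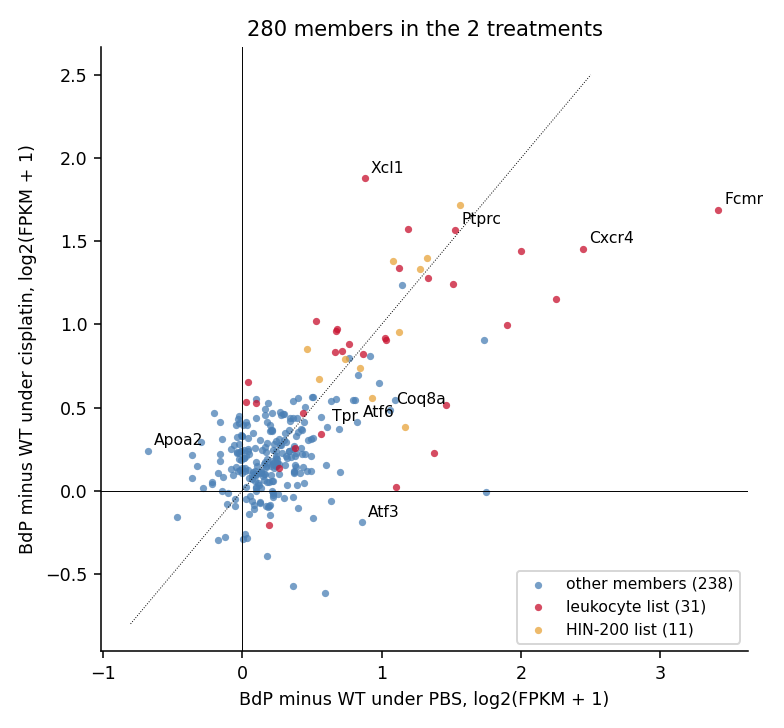
BdP minus WT difference in log2(FPKM + 1) under cisplatin (vertical) against PBS (horizontal) for each of 280 members, with the line of equal values dotted. Most of the 238 other members form a cloud a little above 0 on both axes (medians 0.19 and 0.19), and the leukocyte and HIN-200 members spread out to 3.42 and 1.88.

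The response to cisplatin was not used to choose the members, so it could be tested. In limma's test over 12319 genes, 0 of the 280 members changed with cisplatin in WT tumours (1 gene in all did, 0.00812%), and 0 in BdP tumours (0 in all, 0%). At an unadjusted p below 0.05, 16 members passed in WT, where 7.74% of all genes did, and 10 in BdP, where 4.40% did. With cisplatin the members had a median difference of -0.01 within WT and -0.02 within BdP, beside -0.006 and -0.003 over all genes tested. limma voom on the recovered reads, chosen after seeing the data, also called 0 members in each genotype.

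In WT tumours the 3 members with the smallest p were Kdm5b, a histone H3K4 demethylase gene, at 0.52 ± 0.15 (limma adjusted p = 0.548), the lysosomal glycoprotein gene Creg1 at -0.73 ± 0.24 (0.596) and Tpr at 0.36 ± 0.13 (0.596). Kdm5b FPKM was 2.44, 3.55, 3.73 and 4.6 under PBS and 5.03, 5.44, 5.1 and 6.43 under cisplatin in WT, with no overlap. In BdP tumours, where its genotype difference was 0.37 ± 0.15 under PBS, it was 4.7, 3.74, 4.81 and 6.28 and 5.67, 4.9, 5.88 and 4.85 and overlapped. The smallest p in BdP tumours belonged to Igsf8 at -0.58 ± 0.16, Ephx1 at 0.66 ± 0.22 and Phlda3 at 0.81 ± 0.27, each with a limma adjusted p of 1. Phlda3, a p53 target that restrains Akt, read 52.9, 64, 57.1 and 44.8 under PBS and 125, 115, 69.7 and 84.8 under cisplatin in BdP, with no overlap. In WT it read 45, 74.5, 42.6 and 65 and 85.7, 119, 50.5 and 52.4, which overlapped. Ephx1, for an epoxide hydrolase of the ER, was at 53.4, 69.2, 66.6 and 60.6 and 122, 121, 70.3 and 92.5 in BdP, also with no overlap. In WT Ephx1 was at 56.5, 66.6, 65.1 and 67.8 and 86.8, 119, 52.6 and 70.5, where WT cisplatin 3 lay below all PBS libraries. Kdm5b, Phlda3 and Ephx1 were picked for a small p in the contrast where they did not overlap, so that follows from the choice. The share of all genes that separated with cisplatin is not given. Whether the response differed between genotypes is the interaction tested below, which 0 members passed.

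Whether the genotype difference itself differed between treatments was tested as an interaction, and 0 of 280 members passed (0% of all genes did), with 5 members and 5.61% of all genes at an unadjusted p below 0.05. limma voom gave 0 as well. The rule used the differences under PBS and under cisplatin, so the interaction is not independent of the choice of members. The smallest p belonged to Dusp10, for a phosphatase of stress kinases, at -1.21 ± 0.45, Gm10031 at 0.58 ± 0.25 and the xylose kinase gene Fam20b at 0.47 ± 0.20, each with a limma adjusted p of 0.835. Dusp10 was higher in BdP under PBS (0.59 ± 0.32) and lower under cisplatin (-0.62 ± 0.32), with WT cisplatin 3 and 4 high at 7 and 8.48 FPKM. For the mitochondrial genes above, the interaction was 0.34 ± 0.16 for Sdhc and 0.36 ± 0.18 for Fh1. On data simulated at this size, the same test of cisplatin in WT found 81% of genes changed 2-fold and 93% of those changed 4-fold, so smaller changes could be missed. The changed genes were drawn from those above a set expression level, with noise independent between genes, and 9 unchanged genes were called. At each fold 100 genes were changed, which eases the adjusted cutoff for all of them. In the data 1 gene passed this test, so the share found of changes this size may be lower there. The share found among members of low expression was not measured. DNA copy number was not analysed here.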

How the data were processed

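RNA from 16 tumours was sequenced. The deposited table holds FPKM per gene, made by the authors with HISAT2 2.0.5, featureCounts 1.5.0-p3 and CASAVA, on GRCm38 (mm10), per the submitters' processing notes. The strand setting is not given in the sources used here, so reads of overlapping and antisense genes cannot be told apart. FPKM multiplied by gene length came out as whole reads for 100% of values (tolerance 0.1 read), which gave the depth of each library, 10051843 to 27055771 reads in genes. The library size in the FPKM was not this plain depth. Members took 33332 of 10051843 reads in WT PBS 1 and 264528 of 16798114 in WT PBS 2. Yet Tpr was at 10.7 FPKM in WT PBS 1 and at 16.1 to 16.9 in the other WT PBS libraries. From 27 identifiers, symbols that a spreadsheet had turned into dates were restored with GENCODE M21, which placed 279 of 280 members at the same position.

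From these values, log2(FPKM + 1) was fitted with limma 3.58.1 (R 4.3.3, empirical Bayes with a mean-variance trend) over 4 group means, for 12319 genes that reached 1 FPKM in 4 or more libraries, with Benjamini-Hochberg adjustment over all of them. There were 5 contrasts. Errors of differences are limma's SE and errors of FPKM are SD over 4 libraries. The labels do not say that libraries of 1 group came from separate animals, so p-values measure the spread between these samples. Replicate numbers 1 to 4 recur in all groups, but no pairing by number was seen. The procedure was tested on simulated data.

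The members and gene lists were chosen with earlier results of these data known. Named genes were the 10 most abundant members, the 10 highest and 5 lowest mean differences, 5 genes on either side of each bound, the 3 smallest p in each tested contrast, up to 6 abundant members of each of 9 lists, protein S partners and Pros1. A few genes that these rules or the tests name are not reported here. Marker lists were T cell, B and plasma cell, macrophage, neutrophil, erythroid, melanocyte, fibroblast and endothelium. Alternatives covered the pseudocount, the filter, the scaling, the libraries and the replicate block.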

Additional observations from a re-analysis of the deposited data

Results flagged for a closer look

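Among 320 groups of 4 values of named genes and library scores, 23 (7.19%) held a library that stood apart from the other 3 by Dixon's criterion, where chance gives about 5%. In WT PBS 1, the library rich in mitochondrial transcripts, Ints7 was high at 13.5 FPKM, and Atf3 was low at 17.4 (the others 80.4 to 87.1) and Tpr low at 10.7. WT PBS 3 was high in the leukocyte and HIN-200 genes Fcrla (0.807), Lax1 (1.83) and Ifi209 (9.44), and in Rab3gap1 (5.02). WT cisplatin 3 was high in Fcmr (14.1) and Lax1 (3.09), and WT cisplatin 2 in Fam20b (8.21) and Uck2 (27.5).

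Among the BdP libraries, BdP PBS 2 was high in Rab29 (8.13 FPKM), Parp1 (40.6) and Adipor1 (58.4), BdP PBS 4 in Tmem206 (16.5), and BdP PBS 1 in Dusp10 (8.73), and BdP PBS 1 was low in Psen2 (39.2, the others 51.3 to 53.2). BdP cisplatin 2 was high in Fcmr (70.8), Cxcr4 (143), Cd55 (12.9) and Lax1 (10.3), BdP cisplatin 3 high in Rgs2 (21.5), and BdP cisplatin 1 low in Mndal (2.79, the others 7.78 to 8.68). WT PBS 3 and BdP cisplatin 2 gave the most, 4 each of the 23.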

How the results depend on the processing

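The members' median and its distance from the genes before the segment stayed above 0 under all alternatives run, and 0 members were called for cisplatin in either genotype or for the interaction under any of them. The median under PBS (0.22) became 1.06 in TPM, 0.66 in TPM without mitochondrial transcripts, 0.15 when centred on genes off chromosome 1, 0.27 with limma voom, 0.34 as a mean and 0.10 with no filter, which adds genes near 0. Under cisplatin (0.22) it became 0.39 in TPM, 0.30 as a mean and 0.11 with no filter. TPM moved the median of all genes by 0.81 and 0.14, and TPM without mitochondrial transcripts by 0.41 and -0.05. Less the median of all genes, the 238 members outside the leukocyte lists were at 0.20 and 0.21 in TPM. When centred, 207 and 229 of 280 members were above 0 in place of 234 and 239, and in TPM 279 and 264. The distance from the genes before the segment (0.25 and 0.29) became 0.33 under PBS as a mean, and 0.10 and 0.11 with no filter.

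Members called for BdP against WT under PBS (5) numbered 0 in TPM without mitochondrial transcripts, 3 centred, 1 with no filter, 0 with the 8 libraries of the contrast and 2 without the 3 libraries richest in mitochondrial reads. Under cisplatin (4) they numbered 0 in TPM with or without mitochondrial transcripts, 1 centred, 8 with limma voom, 8 with the 8 libraries and 1 without the 3 libraries. Leaving out 1 library gave 0 to 10 and 0 to 12 calls, medians of 0.21 to 0.26 and 0.21 to 0.24, and distances of 0.24 to 0.31 and 0.27 to 0.32. With the replicate block 5 members were called under PBS and 2 under cisplatin, and 0 for cisplatin in either genotype and for the interaction. Same-numbered libraries correlated at -0.61 to 0.42, other-numbered ones at -0.54 to 0.57, and 3 of 16 correlated best with their own number. No pairing by number was seen, and this check could not exclude one. Of 10248 values of single named genes under alternatives, 153 moved and 627 changed sign, 0 of them called. In TPM 18 of 77 differences changed sign under PBS and 6 under cisplatin. With limma voom the 42 leukocyte and HIN-200 members were at 1.69 and 1.77. limma voom, the counts of separated members without 1 WT PBS library and the list medians by setting were chosen after seeing the data. Planned count tests by 2 other tools were not run, since the deposited unit is FPKM. Depth limits WT PBS 1 most, with 33332 reads in members.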
